A study of Mus musculus with 12 samples.

Results

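The BCL2 family genes described here are Bcl2, Bcl2l1, Bcl2l11, Bax, Bak1, Bad, Bid, Bbc3, Pmaip1 and Mcl1, the proteins of which set whether a cell dies by the mitochondrial route. They were taken by gene name from the scanner files, with every probe of each gene: 10 of 30119 gene names on the array, carried by 14 of 39429 distinct probes. Of these 14 probes, 13 passed the filter on dim signals and were tested, among 23791 probes in all. The ovaries came from 12 females of C57BL/6J, an inbred mouse strain, aged 2 months; they were minced and their RNA was measured on 2-colour Agilent arrays. The control group (4 females) ate a normal diet, the early-life group (4 females) a VD-deficient diet, low in vitamin D, in early life only, and the peripubertal group (4 females) the same kind of diet around puberty only. All 3 groups were adult and shared strain and sex. A whole minced ovary mixes follicles of every stage with corpora lutea, stroma and vessels, so that fewer cells of a type and less RNA per cell cannot be told apart.

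Most follicles of a mouse ovary never ovulate and are lost by atresia, in which the granulosa cells around the oocyte die by apoptosis. The choice is made at the outer mitochondrial membrane. BAX and BAK1 open pores in it, BCL2, BCL-XL (from Bcl2l1) and MCL1 hold them back, and BH3-only proteins such as BIM (from Bcl2l11), PUMA (from Bbc3), NOXA (from Pmaip1), BAD and BID release or trigger the pore formers. Granulosa cells are known to depend on this balance, and mice without Bax keep follicles that would otherwise be lost.

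The probes are strands of 60 bases, and where a probe lies decides which transcripts it reads. Of the 14, the 4 whose sequence falls in coding sequence are shown, in mm9 coordinates, to make plain which stretch of each gene the values below stand for. The Bcl2 probe (chr1:108608970-108609029, minus strand) lies in the BH1 region, which forms part of the groove that holds BH3 peptides, and its capitals mark the codons of the paired glycines of BH1. The Bcl2l1 probe shown (chr2:152655185-152655244, minus strand) lies in the stretch that leads into BH2. The Bcl2l11 probe (chr2:127972893-127983988, plus strand) joins sequence from both ends of an 11096 bp stretch of the genome, so it crosses at least 1 intron, and its capitals mark the glycine and aspartate codons at the core of the BH3 domain. The Bad probe (chr19:7016918-7017403, plus strand) spans 486 bp of the genome, and its capitals mark the ATG that corresponds to the start of the human protein.
Bcl2: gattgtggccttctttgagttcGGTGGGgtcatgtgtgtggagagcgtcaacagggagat
Bcl2l1: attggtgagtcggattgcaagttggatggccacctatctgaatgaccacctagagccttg
Bcl2l11: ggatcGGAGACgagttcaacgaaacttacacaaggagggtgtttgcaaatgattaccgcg
Bad: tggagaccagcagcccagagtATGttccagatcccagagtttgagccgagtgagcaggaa

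The other probes lie outside these coding stretches. The second Bcl2l1 probe (chr2:152606404-152606463) and the second Bad probe (chr19:7026323-7026382) lie further along their transcripts. Bax (chr7:52717122-52717181), Bak1 (chr17:27156807-27156866), Bid (chr6:120843464-120843523) and Bbc3 (chr7:16903403-16903462) have 1 probe each, and Mcl1 has 2 (chr3:95465543-95465602 and chr3:95466855-95466914). A second Bcl2l11 probe (chr2:127954736-127955417), made to another transcript, was not well above background in any of the 12 samples and was not tested.

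On each of 6 arrays a pair of mice from the same diet group was read together, with Cy3 for odd and Cy5 for even replicates. Median spot signals of a channel were 147 to 331 intensity units over backgrounds of 17.5 to 35 units, and 58.3% to 64.6% of probe features were well above background. The arrays are few, which limits the precision, and the standard errors of the member differences ran from 0.07 to 0.29 on the log2 scale. The control and early-life arrays shared 1 slide and the peripubertal arrays had their own, so an effect of slide cannot be told apart from one of the peripubertal diet.

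The deposits disagree on which arrays were controls. In the separate deposited table of log2 values, every column named for a control sample matched a scanner channel labelled early life, and every column named early life matched a channel labelled control (correlation across probe features at least 0.999767). The peripubertal columns of that table matched none of the 12 channels (best correlation 0.874 to 0.897). Group names below follow the scanner files. The sign of each early-life versus control difference therefore turns if the table is right, and each peripubertal versus control value then stands for peripubertal versus early life. The difference between the peripubertal arrays and the arrays labelled early life is measured either way, but the second group would then be the controls.

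Across the family, few diet differences passed the threshold set over all probes. A probe is called where the Benjamini-Hochberg adjusted p of the limma model over all 23791 probes was under 0.05. No member probe of 13 was called for early life against control, where 0.0168% of all probes were, and none of 13 for peripubertal against control, where 0.227% were. Pmaip1 was the 1 member called for early life against peripubertal, among 2.14% of all probes. At an unadjusted p under 0.05 there were 2 member probes (15.4%) for early life against control, beside 13.3% of all probes. For peripubertal against control there were 3 (23.1%), beside 11.5%, and for early life against peripubertal 3 (23.1%), beside 23.4%. All values of both groups stood apart in 4 of 13 member probes (30.8%) for early life against control, beside 13.2% of all probes. They did so in 3 (23.1%) for peripubertal against control, beside 11.1%, and in 3 (23.1%) for early life against peripubertal, beside 20.2%.

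The signs leaned in 1 direction in the comparisons that involve the peripubertal arrays. Of 13 probes, 10 had a lower mean in peripubertal than in control ovaries (median log2 difference -0.10, where the median over all probes was 0.01), and 11 a higher mean in early-life than in peripubertal ovaries (median 0.17 against -0.03 over all probes). By the brightest probe of each gene, 8 of 10 genes were lower in peripubertal than in control ovaries. In early-life against peripubertal ovaries, 8 of 10 were higher. Early life against control was more even, with 8 probes higher and 5 lower and a median of 0.04. These comparisons share samples in pairs, so that the 3 sets of values are not independent.

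**Figure D1:**
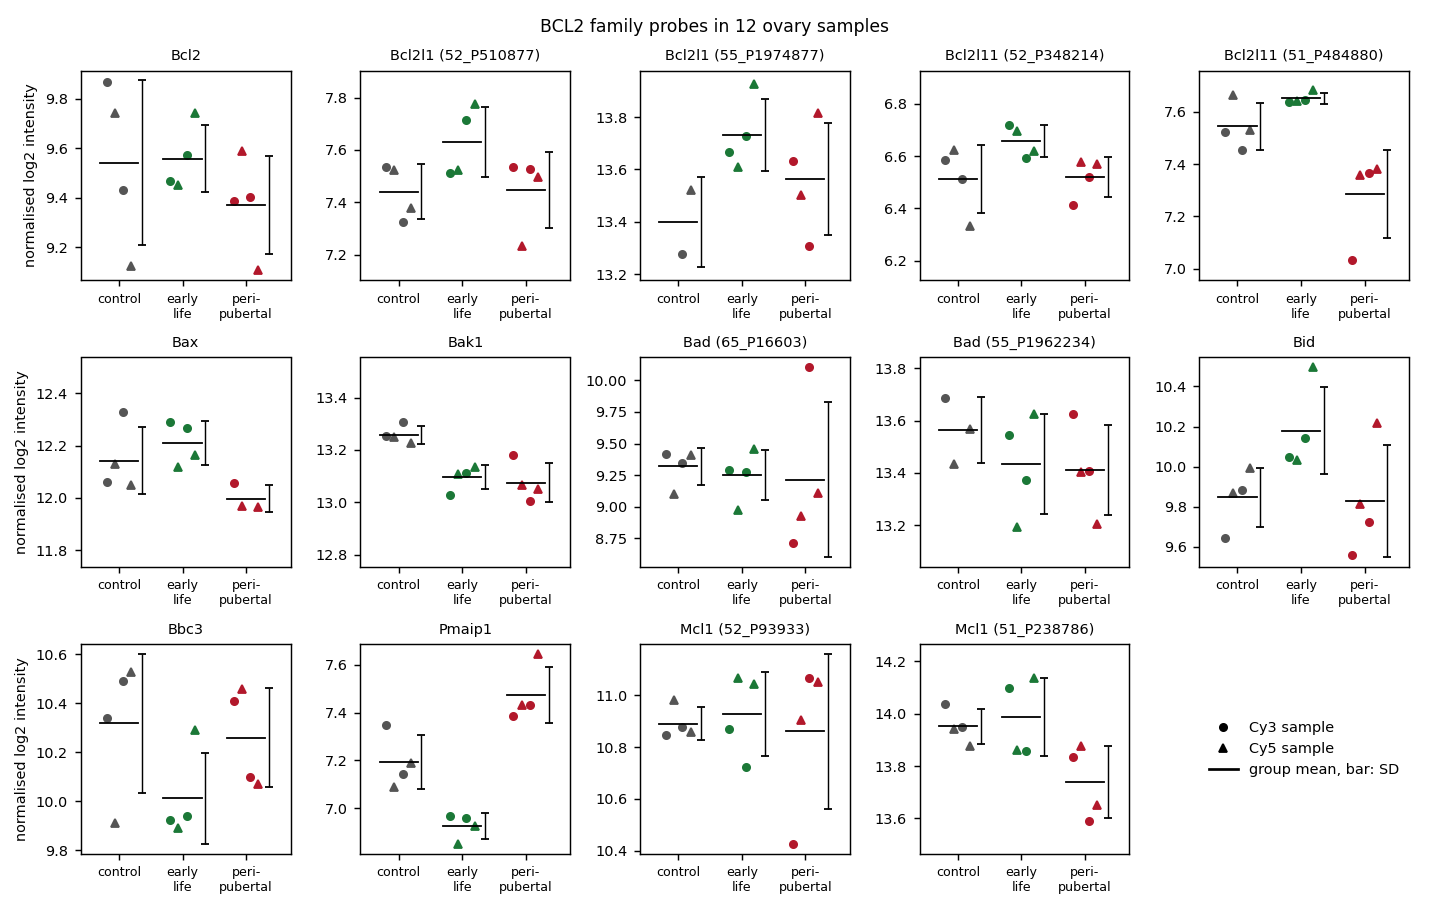
Normalised log2 intensity of each of the 14 BCL2 family probes (vertical axes, 1 panel per probe) in the control, early-life and peripubertal ovaries; points are single mice, circles Cy3 and triangles Cy5, lines are group means and bars the SD. The early-life Pmaip1 values lie below all 4 peripubertal values, and the 4 control Bak1 values lie above those of both other groups.

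Pmaip1 encodes NOXA, a BH3-only protein that binds MCL1, and its probe lies at chr18:66625088-66625147 in mm9. Its normalised log2 intensity was 7.35, 7.09, 7.14 and 7.19 in control ovaries 1 to 4. It was 6.97, 6.85, 6.96 and 6.93 in the early-life ovaries and 7.39, 7.43, 7.43 and 7.65 in the peripubertal ones. The ranges of the 3 groups did not overlap: early life lay lowest, control between and peripubertal highest. Early life was below peripubertal by a log2 difference of -0.55 ± 0.10 (SE, n = 4 against 4; 95% interval -0.78 to -0.32; limma adjusted p = 0.0375). Early life minus control was -0.27 ± 0.10 (adjusted p = 0.326) and peripubertal minus control 0.28 ± 0.10 (adjusted p = 0.332), and neither passed.

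The Pmaip1 signal is dim, and the size of its difference depends on how background is treated. The probe was well above background in 4 of 4 control, 2 of 4 early-life and 4 of 4 peripubertal samples. Without background subtraction the difference was -0.71 ± 0.12 (adjusted p = 0.0288). With the scanner software's own processed signals it was -1.44 ± 0.20 (adjusted p = 0.0198), a setting that also leaves out the loess step within arrays. The difference kept its sign when each of the 12 samples was left out in turn, from -0.58 to -0.48, but it was then called in only 4 of 12 fits (adjusted p 0.0327 to 0.117). The call was lost without controls 2 or 3, early-life replicates 1, 3 or 4, or peripubertal replicates 1, 2 or 4. Without control 2 or 3 the difference itself stayed at -0.55, while calls over all probes fell from 510 to 108 and 86. Without early-life replicates 1 and 3 they fell to 2 and 4. If the array names of controls and early life are swapped, as in the value table, it is the peripubertal minus control difference that is called, at 0.55.

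Marker scores of several cell types stood apart between the same pair of groups. The macrophage score, the mean deviation of 7 macrophage genes from their overall mean, was -0.84 to -0.41 in early-life, -0.49 to 0.62 in control and 0.20 to 0.81 in peripubertal ovaries. All 7 of these genes were apart between early-life and peripubertal ovaries, and 4 of 7 were called lower in early life. The oviduct epithelium score (5 genes) was -0.31 to 3.59 in early-life, -1.87 to 1.37 in control and -2.45 to -1.0 in peripubertal ovaries, with 3 of 5 genes apart and none called. Smooth muscle (-0.57 to -0.32 in early-life, -0.29 to 0.83 in peripubertal ovaries), lymphocyte (-0.31 to -0.03, 0.02 to 0.16) and endothelium scores (-0.23 to -0.05, -0.01 to 0.29) stood apart too. Of these, 1 of 3 lymphocyte genes (Ptprc) and 1 of 6 endothelium genes (Emcn) were called lower in early life. With the oviduct score as a covariate the Pmaip1 difference was -0.69 ± 0.15 (adjusted p = 0.169), and with the macrophage score -0.53 ± 0.19 (adjusted p = 0.311). The part of these cells in the Pmaip1 difference was not tested beyond these fits.

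**Figure D2:**
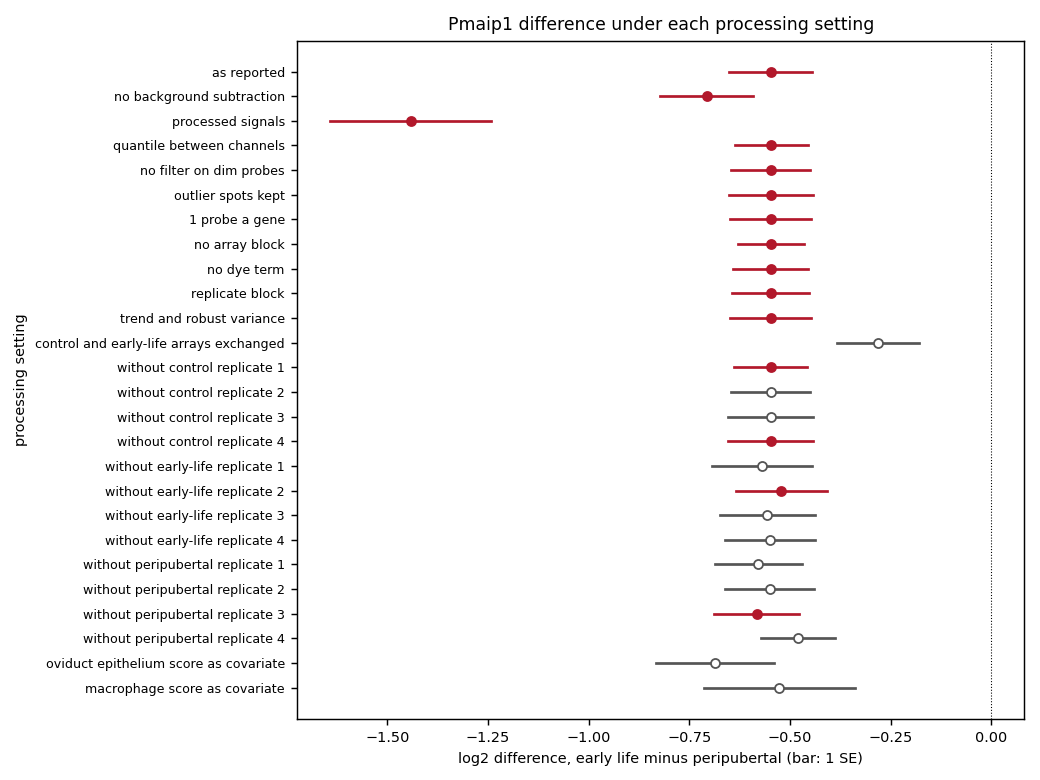
Log2 difference of Pmaip1, early life minus peripubertal (horizontal axis, bars 1 SE), as reported and under each other setting (vertical axis); filled red points have an adjusted p under 0.05. Every estimate is negative, from -1.44 with the processed signals to -0.28 with control and early-life arrays exchanged.

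Bcl2l11 encodes BIM, which can bind all the guardians and activate BAX directly. Its coding probe read 7.52, 7.67, 7.45 and 7.53 in control ovaries, 7.64, 7.64, 7.65 and 7.68 in early-life ovaries and 7.03, 7.36, 7.37 and 7.38 in peripubertal ovaries. All 4 peripubertal values lay below every control and early-life value, with replicate 1 the lowest of all. Early life minus peripubertal was 0.37 ± 0.09 (95% interval 0.16 to 0.58; adjusted p = 0.0687) and peripubertal minus control -0.26 ± 0.09 (adjusted p = 0.333). Neither passed over all probes. Early life minus peripubertal was called in 2 of 25 alternative settings. These were the processed signals (0.86, adjusted p = 0.0439) and the model without the array block (0.37, adjusted p = 0.0221). The latter called 2607 probes in all, against 510 with the block. Of the 12 fits that left out 1 sample, 0 called it (adjusted p 0.0512 to 0.2). The probe was well above background in all but 1 of the 12 samples, a peripubertal one. Pmaip1 and Bcl2l11, both BH3-only genes, had differences of opposite sign between the same ovaries, of which that of Pmaip1 passed.

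Bid encodes the BH3-only protein that caspase 8 cleaves, which links death receptors to mitochondria. Its values were 9.64, 9.87, 9.88 and 9.99 in control, 10.05, 10.03, 10.14 and 10.50 in early-life and 9.56, 9.81, 9.72 and 10.22 in peripubertal ovaries. Every early-life value was above every control value, while the peripubertal values overlapped both groups. Early life minus control was 0.33 ± 0.14 (adjusted p = 0.359) and early life minus peripubertal 0.35 ± 0.14 (adjusted p = 0.179), and neither passed. Peripubertal minus control was -0.02 ± 0.14.

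Bbc3 encodes PUMA, a p53 and FOXO target that can bind all the guardians. Its 4 values ran from 9.91 to 10.53 in control, 9.89 to 10.29 in early-life and 10.07 to 10.46 in peripubertal ovaries, so that all groups overlapped. The largest of its 3 differences, early life minus control, was -0.31 ± 0.18 (adjusted p = 0.471). Bad, a BH3-only protein kept inactive by phosphorylation, was read by a pair of probes. The coding one spread most of all members (residual SD 0.40, against a median of 0.18 over all probes) because peripubertal replicate 3 stood at 10.11, where the other 11 samples ran from 8.71 to 9.46. Its differences were -0.07, -0.10 and 0.03 in the 3 comparisons, each with an SE of 0.29. The other Bad probe, with control replicate 3 left out as an outlier spot, gave -0.16 ± 0.14 for early life and -0.18 ± 0.14 for peripubertal against control (adjusted p = 0.626 and 0.681).

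Of the pore formers, Bak1 set the controls apart by a small step. Its values were 13.25, 13.25, 13.31 and 13.23 in control ovaries, 13.03, 13.11, 13.11 and 13.13 in early-life ovaries and 13.18, 13.07, 13.00 and 13.05 in peripubertal ovaries. All 4 control values lay above the 8 others, and the early-life and peripubertal values overlapped. Early life minus control was -0.16 ± 0.07 (adjusted p = 0.378) and peripubertal minus control -0.18 ± 0.07 (adjusted p = 0.38), which is 0.894 and 0.881 of the control level, and neither passed. Mice of 1 group agreed closely on this probe: its residual SD was 0.06, at the 2.13 percentile of all tested probes. Both differences share the same control samples, so they are not independent. In the deposited value table, whose group names are opposite, the column group called early life minus that called control was 0.36 (adjusted p = 0.193).

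Bax, the other pore former, was at 12.06, 12.13, 12.33 and 12.05 in control ovaries and at 12.29, 12.12, 12.27 and 12.16 in early-life ovaries. Peripubertal replicates 1, 2 and 4 read 12.06, 11.97 and 11.97, and the spot of replicate 3 was left out as an outlier. These 3 values lay below the 4 early-life values and overlapped the controls at their upper end. Early life minus peripubertal was 0.19 ± 0.09 (adjusted p = 0.243) and peripubertal minus control -0.13 ± 0.09 (adjusted p = 0.658). The 95% interval of early life minus control ran from -0.13 to 0.26.

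Among the guardians, Bcl2 showed no called difference and a wide control spread. Its values were 9.87, 9.74, 9.43 and 9.13 in control ovaries, 9.47, 9.45, 9.57 and 9.74 in early-life ovaries and 9.39, 9.59, 9.40 and 9.11 in peripubertal ovaries. The controls alone covered nearly the whole range of the 12 samples. The differences were 0.02, -0.17 and 0.19 for early life minus control, peripubertal minus control and early life minus peripubertal, each ± 0.18, with adjusted p from 0.566 to 0.974.

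Bcl2l1, the source of BCL-XL, was higher in early life at both probes without passing. Its coding probe ran from 7.33 to 7.54 in control, 7.51 to 7.77 in early-life and 7.23 to 7.54 in peripubertal ovaries. Early life minus control was 0.19 ± 0.11 there (adjusted p = 0.47), and early life minus peripubertal 0.18 ± 0.11 (adjusted p = 0.35). The other probe gave 13.28 and 13.52 in controls 3 and 4, the spots of controls 1 and 2 being left out as outliers. Early life read 13.67, 13.61, 13.73 and 13.93 on it, above both measured controls, with a difference of 0.33 ± 0.18 (adjusted p = 0.445).

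Mcl1 encodes the guardian that NOXA binds and that turns over fast. Its first probe read 10.85 to 10.98 in control, 10.72 to 11.07 in early-life and 10.43 to 11.07 in peripubertal ovaries, with differences of 0.04, -0.03 and 0.07, each ± 0.14. The second probe read 13.88 to 14.04 in control, 13.86 to 14.14 in early-life and 13.59 to 13.88 in peripubertal ovaries. There peripubertal minus control was -0.21 ± 0.12 (adjusted p = 0.528) and early life minus peripubertal 0.25 ± 0.12 (adjusted p = 0.228). The group ranges overlapped at both probes.

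**Figure D3:**
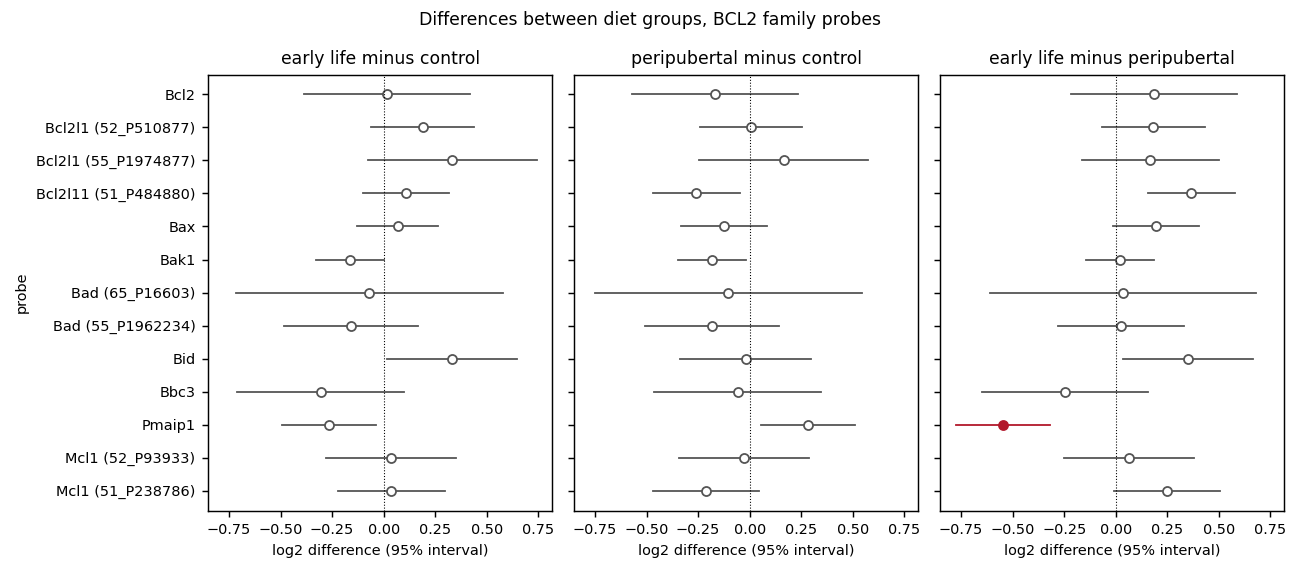
Log2 differences with 95% intervals (horizontal axes) for the 13 tested BCL2 family probes (vertical axis) in each of the 3 comparisons; red marks an adjusted p under 0.05. Pmaip1 is the 1 probe in red, for early life minus peripubertal, and most intervals cross 0.

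Genes read by a pair of probes allowed a check of 1 reading against the other across the samples, after the mean of each dye was taken off. For Bcl2l1 both probes moved together over the 10 samples with both values (Pearson r = 0.792, Spearman rho = 0.758; permutation p = 0.00304 and 0.0144, adjusted over the 3 genes 0.00912 and 0.0432). The relation held without the 2 samples farthest from the median (r = 0.715) and within the slide of the control and early-life arrays (r = 0.896, 6 samples). For Bad it did not hold over 11 samples (r = 0.041, rho = 0.355; permutation p = 0.908 and 0.285, adjusted 0.908 and 0.428), but r was 0.753 without the 2 farthest samples and 0.883 within that slide (7 samples). For Mcl1 there was none over 12 samples (r = -0.11, rho = 0.0070; permutation p = 0.738 and 0.991, adjusted 0.908 and 0.991), and r was 0.237 without the 2 farthest samples and 0.53 within that slide (8 samples). The peripubertal slide held 4 samples, too few for a value of its own. Samples of 1 array are not fully independent, so these p-values may be too small.

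The balance of pore former to guardian was read as Bax minus Bcl2, each taken as its deviation from its own mean over the samples. It was -0.44, -0.25, 0.26 and 0.29 in the controls, 0.19, 0.03, 0.06 and -0.22 in early life and 0.03, -0.26 and 0.22 in peripubertal replicates 1, 2 and 4. The group means were -0.04 ± 0.37 (SD, n = 4), 0.01 ± 0.17 (n = 4) and 0.00 ± 0.24 (n = 3). All groups overlapped, and the spread within the controls was larger than any distance between group means.

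Other members of the wider BCL2 family were taken from a list of 16 genes, of which 13 were measured. None was called in any comparison, and the medians were -0.07, -0.01 and 0.03. Bnip3, a BH3-like mitochondrial protein induced by hypoxia, had the smallest p against control. Its values were 9.06, 8.93, 9.33 and 9.23 in controls, 8.61, 8.94, 8.54 and 8.46 in early life and 8.76, 8.62, 8.52 and 8.54 in peripubertal ovaries. Early life minus control was -0.50 ± 0.14 (adjusted p = 0.252) and peripubertal minus control -0.53 ± 0.14 (adjusted p = 0.207), again with shared controls. Its relative Bnip3l gave -0.31 ± 0.10 for early life minus peripubertal (adjusted p = 0.118), and a second Bnip3l probe -0.15 (adjusted p = 0.485).

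The Bcl2a1 genes, guardians of blood cells, leaned the same way as the macrophage score. Bcl2a1d was -1.06 ± 0.39 (adjusted p = 0.153) and Bcl2a1c -0.68 ± 0.20 (adjusted p = 0.0991) for early life minus peripubertal. These copies are near-identical, and Bcl2a1a and Bcl2a1b are not on the array by name, so their probes may read each other's transcripts. Bcl2l15 was not well above background in any peripubertal sample, where all 4 values were 6.66 to 6.80, and ran from 7.37 to 10.59 in early-life ovaries, at least 3.99-fold higher (adjusted p = 0.119). Its lowest early-life value was in replicate 2, the early-life sample with the lowest oviduct score. The part of oviduct cells in this value was not tested.

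The rest of the list stayed close to 0 or had wide errors. Bcl2l10, a guardian found in oocytes, gave 0.69 ± 0.33 for early life minus control (adjusted p = 0.401), and Bmf, a BH3-only gene, 0.53 ± 0.30 (adjusted p = 0.465), each with 3 controls measured. Bcl2l14 gave 1.08 ± 0.56 for early life minus peripubertal (adjusted p = 0.275) and was well above background in 6 of 12 samples. Bcl2l2 (BCL-W), Bok, Bik, Bcl2l12 and Bcl2l13 had differences between -0.30 and 0.20 in all 3 comparisons. Hrk was on the array but did not pass the filter.

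Downstream of the mitochondria, cytochrome c and APAF1 assemble the apoptosome that activates caspase 9. Of 13 genes of the apoptosome and caspases, 12 were measured and none was called in any comparison (medians -0.10, -0.10 and -0.07). Vdac2, an outer membrane channel that holds BAK1, measured in 3 early-life samples, gave 0.42 ± 0.11 for early life minus peripubertal (adjusted p = 0.0814), and Htra2, a protease released with cytochrome c, -0.32 ± 0.10 (adjusted p = 0.114). Apaf1 gave -0.27 ± 0.11 (adjusted p = 0.175). Among 6 caspase inhibitors, Birc2, the ubiquitin ligase cIAP1, was lower in early-life than in peripubertal ovaries by a log2 difference of -0.49 ± 0.11 (adjusted p = 0.0495). Its values were 11.36, 11.06, 11.16 and 11.07 in early life and 11.72, 11.65, 11.57 and 11.69 in peripubertal ovaries, with no overlap, and 11.08 to 11.52 in controls. The Birc2 call was lost in 9 of the 12 fits that left out 1 sample (adjusted p up to 0.139), and with the oviduct and the macrophage score as covariates the difference was -0.58 (adjusted p = 0.231) and -0.18 (adjusted p = 0.66). Birc5 (survivin) gave -0.39 ± 0.17 for peripubertal minus control (adjusted p = 0.431).

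Death receptors reach the mitochondria through Bid. None of the 10 measured genes of 12 in that list was called (medians 0.02, 0.11 and -0.09). Tnfrsf10b, the mouse TRAIL receptor, gave 0.57 ± 0.19 for early life minus control (adjusted p = 0.286) and 0.40 ± 0.19 for peripubertal minus control (adjusted p = 0.453). Tnfrsf1b gave 0.32 ± 0.14 for peripubertal minus control (adjusted p = 0.414), and Tnfrsf1a -0.25 ± 0.11 for early life minus peripubertal (adjusted p = 0.21).

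Bbc3 and Pmaip1 are targets of p53, and 14 of 14 genes of the p53 pathway list were measured. Ccng1, a p53 target that encodes cyclin G1, was higher in peripubertal than in control ovaries by 1.74 ± 0.19 (adjusted p = 0.0468), the 1 call of the list. This value rests on 2 controls, 9.73 and 9.21, since the spots of controls 2 and 4 were left out as outliers, against 11.26, 11.21, 11.11 and 11.38. The call was lost when any of the 12 samples was left out (differences 1.48 to 2.00, adjusted p 0.0568 to 0.136). In these fits the calls over all probes in that comparison also fell, from 54 to between 1 and 35. Ccng1 had no value in controls 2 and 4 or early-life replicates 3 and 4, and without any of these the difference stayed at 1.74. No other gene of the list was called in any comparison (medians 0.06, 0.10 and 0.05). Chek1, a checkpoint kinase, gave -0.31 ± 0.08 for early life minus peripubertal (adjusted p = 0.0622). Its signal was dim, well above background in 2 of 4 control, 3 of 4 early-life and 4 of 4 peripubertal samples.

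BIM and PUMA are also driven by FOXO factors, which AKT signalling restrains. Of 13 genes of FOXO and survival kinases, 12 were measured and none was called (medians 0.06, 0.16 and -0.07). Pik3ca, the catalytic subunit of PI3 kinase, measured in 2 early-life samples, gave -0.39 ± 0.11 for early life minus peripubertal (adjusted p = 0.1). Jun, measured in 3 samples of each group, gave 0.95 ± 0.46 for early life (adjusted p = 0.419) and 1.20 ± 0.46 for peripubertal ovaries (adjusted p = 0.391) against control. Foxo1 gave 0.84 ± 0.39 (adjusted p = 0.406) and 0.40 ± 0.40 (adjusted p = 0.755), with 2 controls, 4 early-life and 3 peripubertal samples measured.

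Granulosa cells of growing follicles are where atresia begins. None of 10 granulosa genes of growing follicles was called, and the medians were -0.09, -0.15 and 0.05. Igf1, a granulosa survival factor, gave -0.54 ± 0.20 for early life (adjusted p = 0.328) and -0.58 ± 0.24 for peripubertal ovaries (adjusted p = 0.418) against control on its brightest probe, which was measured in 2 peripubertal samples. Of its 5 probes, the 3 with all 12 values gave -0.45 to -0.18 for early life and -0.24 to 0.11 for peripubertal ovaries against control, so the probes disagree in size and, for peripubertal ovaries, in sign. The brightest probe of Foxl2, a granulosa transcription factor, gave 0.48 ± 0.21 for peripubertal minus control (adjusted p = 0.406) and -0.51 ± 0.21 for early life minus peripubertal (adjusted p = 0.176). A second Foxl2 probe disagreed, with -1.56 (adjusted p = 0.432) and -0.15 (adjusted p = 0.917): on it controls 1 and 2 read 11.11 and 9.97, where the other 10 samples ran from 7.17 to 7.73. No direction is therefore given for Foxl2. Genes for the uptake of dead cells were not called either, 0 of 9 in each comparison (medians -0.06, -0.04 and -0.24). Mertk, the receptor with which phagocytes take up apoptotic cells, gave 0.37 ± 0.15 for peripubertal minus control (adjusted p = 0.388).

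The tissue label was checked on marker lists. The granulosa score (7 genes) ran from -0.42 to 0.58 and the oocyte score (8 genes) from -0.36 to 0.64 over the 12 samples, and no gene of either list was called in any comparison. Other lists spread more. The luteal score (5 genes) ran from -1.69 in control 1 to 1.53 in peripubertal 3, and its gene Akr1c18, which breaks down progesterone, gave -4.10 for early life minus peripubertal without overlap (adjusted p = 0.0977). In that comparison Ptgfr and Prlr, also luteal, gave -1.01 and -0.57, and Lhcgr and Sfrp4 gave 0.48 and 0.27. The adipocyte score (4 genes) was -2.25 to -0.27 in control, 0.24 to 2.68 in early-life and -1.52 to 0.98 in peripubertal ovaries. Its genes Adipoq, Cfd and Fabp4 were apart between early life and control, at 2.34 to 2.96 (adjusted p 0.339 to 0.348). Its other measured gene, Plin1, overlapped, at -0.04 ± 0.51 (adjusted p = 0.979). Bid, the second Bcl2l1 probe (with 2 controls measured), Bak1 and Pmaip1 stood apart in the same comparison, as did 13.2% of all probes. The part of fat or luteal cells in the member differences was not tested.

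**Figure D4:**
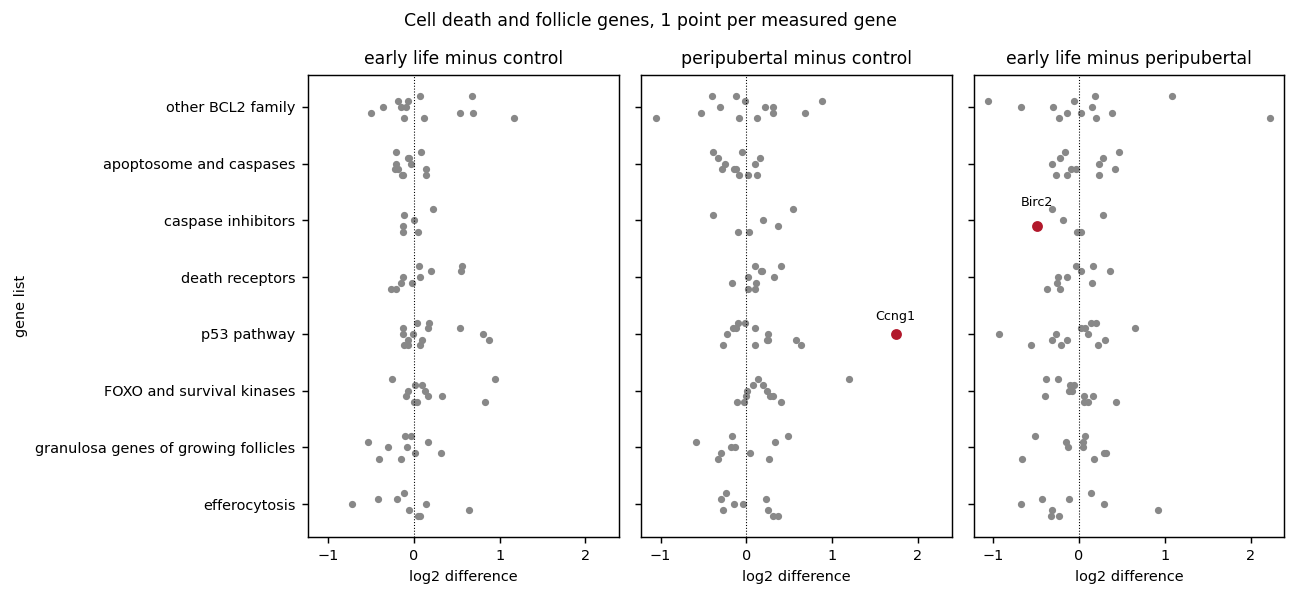
Log2 differences (horizontal axes) of every measured gene of the 8 cell death and follicle lists (vertical axis) in the 3 comparisons; red points with names have an adjusted p under 0.05. Ccng1 for peripubertal minus control and Birc2 for early life minus peripubertal are the called genes.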

How the data were processed

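Ovary RNA of 12 mice was measured on 6 two-colour arrays with 2 samples each. The deposited scanner files give mean, background and processed signals as intensity, and per the file headers were made with Agilent Feature Extraction 11.0.1.1. A deposited table of log2 values was used as an alternative, and how the authors made it is not given in the sources used here. Probe coordinates are mm9, per the file headers, and no mm9 gene models were used.

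Intensities were background-corrected by normexp (offset 50), normalized within arrays (loess) and between them (Aquantile) with limma 3.58.1 and statmod 1.5.0 in R 4.3.3, and each channel was treated as 1 sample. Spots set aside by the scanner software as outliers were left out (2.82% of values missing), and probes well above background in at least 4 samples with at least 2 values per group were tested. Where a group had no sample well above background, a fold is a lower bound against that group's background level. The model held diet group and dye, with the array as a random block (correlation 0.297), and Benjamini-Hochberg adjustment ran over all 23791 probes; ± after a difference is its standard error. The method was tested on simulated data.

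Members and lists were chosen with earlier results of these data known. Named genes are all members with every probe, the whole wider BCL2 list, and from each other list the called genes and up to 3 with the smallest p per comparison, each by its brightest probe. The 4 females of a group are biological replicates, per the series' design text. Alternatives changed the background, normalization, filters, model terms, the naming of the arrays and the samples used. The covariate fits were added after seeing the data.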

Additional observations from a re-analysis of the deposited data

Results flagged for a closer look

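In 3 of the 36 groups of 4 samples tested among the member probes, 1 sample lay far from the others of its group by Dixon's ratio, which chance alone gives in about 5% of groups. Peripubertal replicate 1 read 7.03 on the Bcl2l11 coding probe, where the other 3 peripubertal ovaries ran from 7.36 to 7.38. Peripubertal replicate 2 read 7.23 on the Bcl2l1 coding probe, below 7.50 to 7.54 in the rest of its group. Early-life replicate 4 read 10.29 on Bbc3, above 9.89 to 9.94 in the rest of its group.

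Pmaip1 was singled out because it was the 1 member probe called between the deficient diets. The limma test gave -0.55 on the log2 scale for early life minus peripubertal (adjusted p = 0.0375). Neither diet differed from control past the threshold (adjusted p = 0.326 and 0.332), slide cannot be told apart from the peripubertal diet, and with the array names exchanged the value was -0.28 (adjusted p = 0.332). The call was lost in 8 of 12 fits that left out 1 sample.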

How the results depend on the processing

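Counts of called probes depended strongly on the model. For early life minus control (4 probes as reported) there were 22 with the processed signals, 112 without the array block, 27 without the dye term and 7 with trend and robust variance. There were 0 with quantile normalization, without the dim-probe filter, with 1 probe a gene, on the slide of the control and early-life arrays alone, and with the oviduct or the macrophage score, and 0 to 44 when 1 sample was left out. For peripubertal minus control (54) there were 34 without the filter and 34 with outlier spots kept, 240 without the array block, 102 without the dye term, 510 with control and early-life arrays exchanged, 0 with the oviduct and 20 with the macrophage score, and 1 to 35 when 1 sample was left out. For early life minus peripubertal (510) there were 2607, 819 and 54 without the array block, without the dye term and with the arrays exchanged, 0 with either score, and 2 to 1818 when 1 sample was left out, with 2 and 4 without early-life replicates 1 and 3 and 1818 without early-life replicate 2. In the limma fits with 0 calls, 1698 to 4516 (early life minus control), 2973 (peripubertal minus control) and 3021 to 3311 probes (early life minus peripubertal) had an unadjusted p under 0.05.

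With the replicate number as a block, 0, 16 and 692 probes were called in the 3 comparisons, and Pmaip1 stayed called for early life minus peripubertal (-0.55, adjusted p = 0.0369), while the Ccng1 call for peripubertal minus control was lost (1.70, adjusted p = 0.08). The numbers were not taken as pairs, since not every correlation of same-numbered residuals was over 0.1: they were 0.0772 to 0.525 between control and early life (3 of 4 over 0.1), -0.278 to 0.0764 between control and peripubertal and -0.346 to 0.0434 between early life and peripubertal. In 3 of 24 cases a sample correlated best with its own number in another group.

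Among the member probes, 0 were called against control in every setting except 1, Pmaip1, for peripubertal minus control with the arrays exchanged. For early life minus peripubertal, 2 were called with the processed signals and 2 without the array block, 0 with the arrays exchanged or with either score, and 0 to 1 when 1 sample was left out. The cause of these changes was not tested. In the deposited value table the names of the control and early-life columns are exchanged against the scanner files. A turned sign of early life minus control, with the groups as its columns are named, thus follows from the naming and is no separate result. Among the members that turned were Pmaip1 (0.42, adjusted p = 0.163), Bid (-0.29), Bak1 (0.36) and Bbc3 (0.38). Both Bcl2l1 probes (-0.26 and -0.14), the Bcl2l11 coding probe (-0.20) and the second Bad probe (0.31) turned as well.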

Other observations

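The 4 table columns named peripubertal match no scanner channel, with a best correlation across probe features of 0.874 to 0.897. They thus differ across the array, and the share of all probes that stood apart was not counted. Within each dye, several members also differed from the other 8 columns. In the odd columns, Bak1 was 3.17 and 3.35 against 5.07 to 5.73 in the odd columns named control or early life, on the table's log2 scale. Bid was 0.57 and 0.71 against 1.84 to 2.30, the Bcl2l11 coding probe -1.28 and -1.36 against -0.49 to -0.27, and Bbc3 3.61 and 3.08 against 2.07 to 2.85. For both Bcl2l1 probes, the coding Bad probe and Pmaip1 the ranges of the odd columns overlapped. These columns entered no comparison, and whether their values stand for the ovaries described here was not tested.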
